A study of Mus musculus with 2 samples.

Results

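Solute carriers are the membrane proteins that move amino acids, sugars, ions, metals, vitamins and metabolites across the cell surface and across the membranes of mitochondria, vesicles and the Golgi. The genes described here are those whose array probes carry exactly 1 gene symbol and whose symbol is Slc followed by a number, letters and a number, where the first number gives the carrier family. This rule found 284 genes on 290 probes, out of 13697 genes named by 14253 probes with 1 symbol, and uses no measured value. It spans 49 families. It also takes in 4 genes named after a carrier that do not themselves carry solutes: Slc4a1ap, Slc7a6os, and the scaffold genes Slc9a3r1 and Slc9a3r2.

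The samples were mouse embryoid bodies, which are clusters of differentiating embryonic stem (ES) cells. One group came from Elongin A-/- ES cells, which lack Elongin A, the transcriptionally active subunit of the elongation factor Elongin. The other came from Elongin A+/+ ES cells. Both received 2 µM retinoic acid, known to favour neural differentiation, and were taken at day 4. The comparison addressed how carrier levels in treated bodies differ without Elongin A. The sources used here do not give the strain, the number of ES cell clones or the number of cultures.

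There was 1 array per genotype, with 32440 probes, so no difference below was tested against replicates, and the genotype cannot be told apart from the ES cell line, the culture or the array. Values are intensities in arbitrary units after quantile normalisation, a step that gives both arrays the same distribution. The floor was the array median, 1.03. A gene above the floor on either array was called measured. Where 1 array lay below it, that array was set to the floor, and the fold is a bound, written as "at least". Log2 differences are Elongin A-/- minus Elongin A+/+. Probes of 1 gene that lay above the floor on both arrays disagreed with an SD of 0.43 on the log2 scale over 224 genes. This is the only measure of error within the arrays, and it does not cover bounds. The probe of Eloa, the gene for Elongin A, had 3.57 on the Elongin A-/- array and 3.87 on the Elongin A+/+ array (-0.12). Which part of the gene was deleted is not stated, so this probe could not check the genotype labels. Because intensity depends on the probe, levels are compared between arrays and not between genes.

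Most carriers work without ATP, either letting a solute run down its own gradient or coupling it to sodium, protons or another solute. In the developing nervous system they take up glutamate, set the chloride gradient and load synaptic vesicles, and in all cells they supply glucose and amino acids and link the cytosol to the mitochondrial matrix.

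The median carrier differed little between the genotypes, and single members differed in both directions. Of the 284 genes 173 were measured: 126 above the floor on both arrays, 25 above it only on the Elongin A-/- array and 22 only on the Elongin A+/+ array. The other 111 lay below the floor on both. Of the measured genes 11 were at least 2-fold higher in Elongin A-/- bodies (6.36%), where 6.76% of all 9568 measured genes were. A further 12 were at least 2-fold lower (6.94%), where 5.97% of all measured genes were. Both shares at 2-fold are near those of all genes. Counts at 2-fold given below without a share of their own are to be read beside these 6.76% and 5.97%. At 1.5-fold 28 of the 173 were higher and 33 lower, where 1512 and 1416 of all 9568 measured genes were (15.8% and 14.8%). The share lower at that size lay above that of all genes, which was not tested. At 3-fold 1 was higher (Slc4a8) and 2 lower (Slc25a36 and Slc5a6), where 2.23% and 1.86% of all measured genes were. The median log2 difference of the 173 was -0.07 (95% interval over members -0.16 to 0.05), and that of all measured genes was -0.02. Such intervals describe how genes spread and say nothing of how cultures do. With the values as deposited, without quantile normalisation, 14 carriers were at least 2-fold higher and 8 lower, where 8.36% and 4.69% of all genes were. The carrier median was then 0.04, and that of all genes 0.07.

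The widest margins higher belonged to Slc4a8 (3.04-fold), a sodium-driven chloride-bicarbonate exchanger of neurons, Slc47a1 (at least 2.96-fold), a proton-coupled exporter of organic cations, and Slc38a5 (2.84-fold), a glutamine carrier. The widest margins lower belonged to Slc25a36 (4.04-fold), a mitochondrial carrier of pyrimidine nucleotides, Slc5a6 (3.25-fold), the sodium-coupled carrier of biotin and pantothenate, and Slc1a5 (at least 2.97-fold), a carrier of glutamine and other neutral amino acids. Of the 11 higher genes 3 are bounds, and of the 12 lower genes 5 are. Among carriers above the floor on both arrays 8 of 126 were at least 2-fold higher and 7 lower, where 5.23% and 4.66% of all such genes were. With the floor raised to the 75th percentile 63 carriers remained. Of these, Slc16a3 alone was at least 2-fold higher and Slc37a3 alone at least 2-fold lower, where 2.61% and 2.19% of all genes measured at that floor were. The other 2-fold differences rest on dimmer probes.

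**Figure D1:**
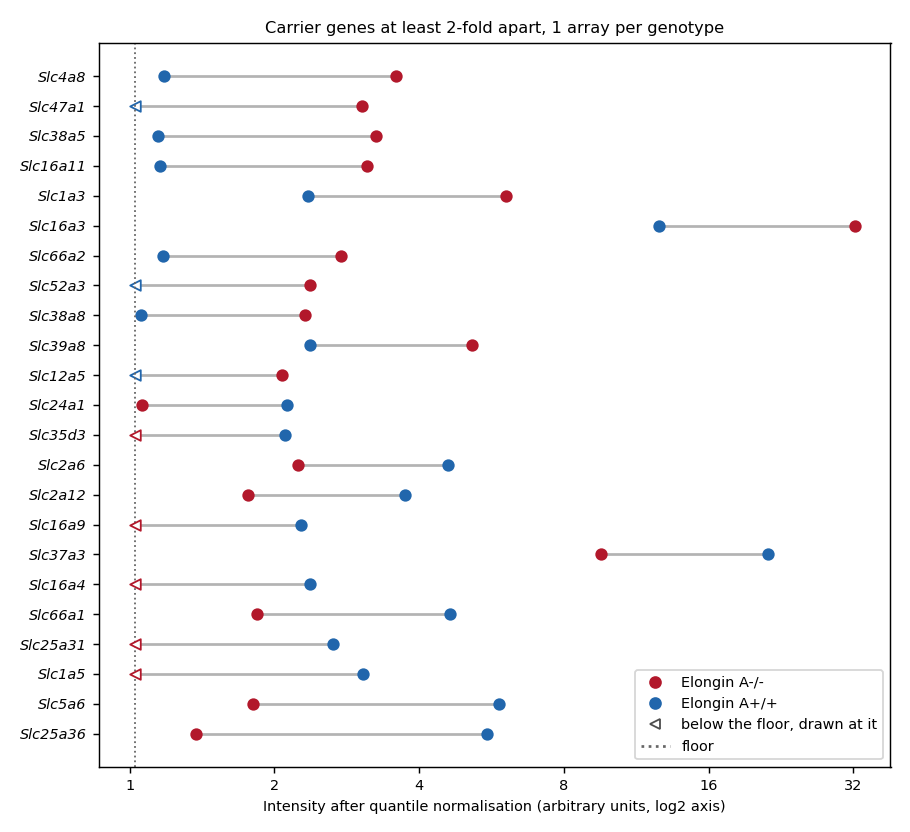
Intensity of the 23 carrier genes at least 2-fold apart, on a log2 axis, for the Elongin A-/- array (red) and the Elongin A+/+ array (blue), with 1 array per genotype and no error bars. Open triangles mark a value below the floor of 1.03, drawn at the floor. Most pairs lie at intensities close to the floor, while Slc16a3 (32.2 against 12.6) and Slc37a3 (9.57 against 21.3) lie well above it.

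Carrier families differed both in their medians and in the spread of their members. Of 10 families with 6 or more measured members, the medians ran between -0.34 (Slc25) and 0.44 (Slc16). The interval over members included 0 in each of the 10, and in the 5 families of 6 or 7 it is the whole range of the members. The monocarboxylate family Slc16 had the widest spread among them (SD 1.20 over 6 genes), and the amino acid family Slc7 (SD 0.40 over 9) and the nucleotide sugar family Slc35 (SD 0.41 over 17) the narrowest.

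**Figure D2:**
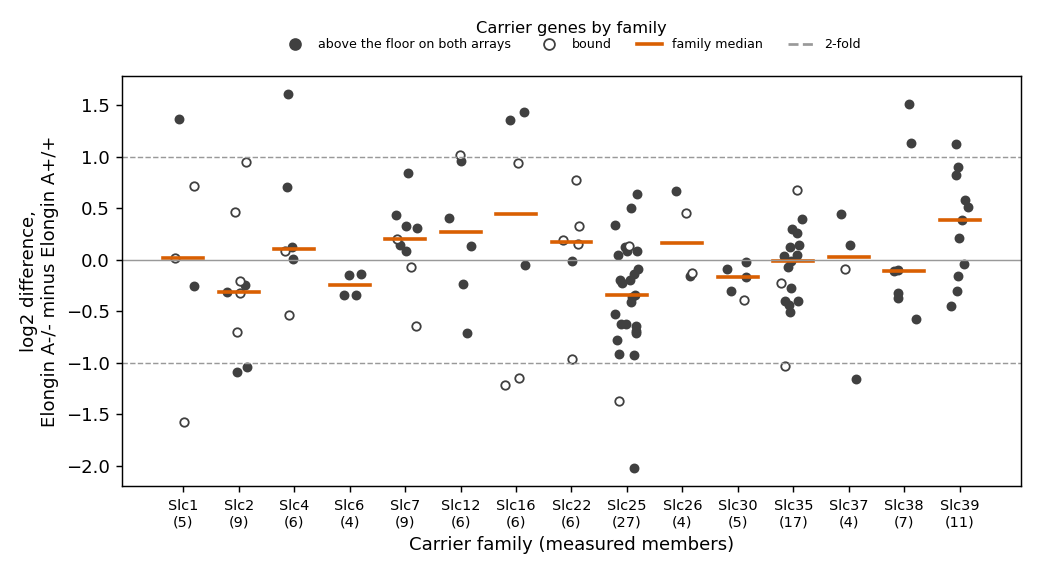
Log2 difference (Elongin A-/- minus Elongin A+/+) of each measured carrier gene in the 15 families with 4 or more measured members. Filled points lie above the floor on both arrays, open points are bounds, orange bars are family medians and dashed lines mark 2-fold. Family Slc25 sits mostly below 0 (median -0.34), family Slc39 mostly above it (median 0.39), and family Slc16 holds genes beyond 2-fold on both sides.

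Amino acid carriers of the cell surface (families Slc1, Slc3, Slc6, Slc7, Slc36, Slc38 and Slc43) had 29 of 53 named genes measured, with 3 at least 2-fold higher and 1 lower. This grouping follows family number, so not every member need work at the cell surface, and it counts Slc7a6os, which is no carrier. Their median was 0.04 (-0.14 to 0.33), and -0.03 when differences were centred. Centring took the deposited values, without quantile normalisation, and subtracted the median difference of all genes above the floor on both arrays. Slc1a3, the glutamate carrier GLAST of radial glia and astrocytes, had 6.06 in Elongin A-/- bodies and 2.36 in Elongin A+/+ bodies, 2.57-fold higher. Slc1a5 lay below the floor in Elongin A-/- bodies and had 3.05 in Elongin A+/+ bodies. So the glutamate and neutral amino acid family held a member on each side of 2-fold. Slc1a6, a glutamate carrier best known from cerebellar Purkinje cells, was close (4.37 against 5.20), and Slc1a2, the other main astrocyte glutamate carrier, was below the floor on both arrays.

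In the system A and N family, all 7 measured genes lay above the floor on both arrays, with a median of -0.11 that was 0.02 with the values as deposited. Slc38a5 had 3.26 in Elongin A-/- bodies and 1.15 in Elongin A+/+ bodies. Slc38a8, a glutamine carrier known for its role in eye development, had 2.32 and 1.06 and lies on chromosome 8, where the median over all measured genes was 0.43. The values of both on the Elongin A+/+ array lay close to the floor. The other 5 were within 2-fold: Slc38a2, the widely expressed system A carrier, had 14.0 and 15.1, and Slc38a1, a glutamine carrier of neurons, 1.06 and 1.58. Slc38a4, an imprinted system A carrier, had 34.5 in Elongin A-/- bodies and 43.1 in Elongin A+/+ bodies.

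No member of the heteromeric and cationic amino acid family Slc7 was 2-fold apart. Of 9 measured genes 7 were higher, counting Slc7a6os, which is no carrier, and the family median was 0.20 (-0.07 to 0.43). That median was 0.17 with each chromosome's median removed, with 5 of 9 higher. Slc7a5 (LAT1), which imports large neutral amino acids, had 7.95 in Elongin A-/- bodies and 5.89 in Elongin A+/+ bodies. Its heavy chain partner Slc3a2 had 19.3 and 15.4. Slc7a6, which exchanges cationic for neutral amino acids with the same heavy chain, had 9.16 and 5.11. All 3 were higher by less than 2-fold, and Slc7a5 and Slc7a6 lie on chromosome 8. With that chromosome's median removed their log2 differences were -0.00 and 0.41, against 0.43 and 0.84 before. Slc7a9, of cystine uptake in kidney, was at least 1.56-fold lower, with 1.60 in Elongin A+/+ bodies. Slc7a11, the cystine-glutamate exchanger, was below the floor on both arrays. In the neurotransmitter family Slc6, 4 of 14 genes were measured, and all 4 were lower by small margins between -0.34 and -0.14, though 1 of them was higher with the values as deposited or with each chromosome's median removed. They included Slc6a9, a glycine carrier (1.58 against 2.00), and Slc6a6, the taurine carrier (4.37 against 4.81).

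Sugar carriers leaned lower in Elongin A-/- bodies. Families Slc2, Slc5, Slc45 and Slc50 had 13 of 26 genes measured, and 11 of the 13 were lower, where 4937 of all 9568 measured genes were. Of the 11, 3 were at least 2-fold lower, 1 of which (Slc5a6) carries vitamins. None was at least 2-fold higher, and 6 of the 13 were bounds. The median was -0.32 (-1.04 to -0.09), and -0.18 with the values as deposited, where 11 of 13 were again lower. With those values 1 sugar carrier was at least 2-fold higher (Slc2a3) and 1 lower. With each chromosome's median removed 1 was higher and 2 lower by that size. With the floor at the 25th percentile the median of 23 genes was -0.17, and 9 of them were higher. Slc2a12, a glucose carrier of family Slc2, had 1.76 in Elongin A-/- bodies and 3.74 in Elongin A+/+ bodies, and Slc2a6, another member, had 2.24 and 4.59. Neither was 2-fold apart with the values as deposited. Slc5a6, which belongs to the sodium-glucose family by sequence, had 1.81 and 5.87.

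Slc2a1 (GLUT1), the carrier of basal glucose uptake in most cells, differed by less than probes of a gene disagree, with 26.4 in Elongin A-/- bodies and 31.4 in Elongin A+/+ bodies. Slc2a3 (GLUT3), the high-affinity carrier of neurons, was at least 1.93-fold higher, with 1.98 in Elongin A-/- bodies and a value below the floor in Elongin A+/+ bodies. It and Slc2a4, the insulin-regulated carrier (at least 1.38-fold higher), were the 2 sugar carriers on the higher side. Slc2a3 lies on chromosome 6, where the median over all measured genes was -0.26, and Slc2a4 on chromosome 11, where it was 0.41. The other 7 measured genes of family Slc2 were all lower, by between -1.09 and -0.21.

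The monocarboxylate family split most. Of 11 named genes 6 were measured, 2 at least 2-fold higher and 2 at least 2-fold lower, with a median of 0.44. That median was 0.03 with each chromosome's median removed, and -1.18 over the 2 genes not on chromosomes 6, 8 and 11. Slc16a3 (MCT4), which exports lactate from glycolytic cells, had 32.2 in Elongin A-/- bodies and 12.6 in Elongin A+/+ bodies, 2.55-fold higher. Slc16a11 had 3.11 and 1.16, 2.69-fold higher. Slc16a13, next to Slc16a11 in the order of protein-coding genes, was at least 1.91-fold higher with 1.96 in Elongin A-/- bodies. These 3 all lie on chromosome 11, as does Slc16a6, which had 18.6 and 19.2. With the chromosome median removed Slc16a3 had a log2 difference of 0.94, under 2-fold, and Slc16a11 one of 1.01. Slc16a4, with no settled substrate, was at least 2.31-fold lower, with 2.37 in Elongin A+/+ bodies. Slc16a9, a carnitine carrier in human, was at least 2.21-fold lower, with 2.27. They lie on chromosomes 3 and 10. Slc16a1 (MCT1), the widely expressed lactate carrier, was below the floor on both arrays. The chaperones of this family, Bsg (144 against 173) and Emb (26.8 against 35.5), were not higher.

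The sequences upstream of the 4 family members at least 2-fold apart are shown because this family holds genes beyond 2-fold in both directions, and Slc16a3 is known as a target of hypoxia-inducible factors. Each is the 250 bases before the gene's start from RefSeq (GRCm38.p6), 5′ to 3′ on the gene's strand, and capitals mark the letters ACGTG or GCGTG, the core these factors bind, on either strand.
Slc16a3 promoter (chr11:120948817-120949066, + strand): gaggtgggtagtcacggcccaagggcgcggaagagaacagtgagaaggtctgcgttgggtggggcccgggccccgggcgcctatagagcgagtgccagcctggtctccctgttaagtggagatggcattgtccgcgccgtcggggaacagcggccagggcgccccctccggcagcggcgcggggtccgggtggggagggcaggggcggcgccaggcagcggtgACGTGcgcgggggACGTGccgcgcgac
Slc16a11 promoter (chr11:70213660-70213909, + strand): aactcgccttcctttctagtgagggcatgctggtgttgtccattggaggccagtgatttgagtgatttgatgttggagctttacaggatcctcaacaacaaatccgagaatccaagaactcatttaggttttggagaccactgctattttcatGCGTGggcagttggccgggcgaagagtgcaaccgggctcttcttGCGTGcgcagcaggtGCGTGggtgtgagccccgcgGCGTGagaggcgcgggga
Slc16a4 promoter (chr3:107290980-107291229, + strand): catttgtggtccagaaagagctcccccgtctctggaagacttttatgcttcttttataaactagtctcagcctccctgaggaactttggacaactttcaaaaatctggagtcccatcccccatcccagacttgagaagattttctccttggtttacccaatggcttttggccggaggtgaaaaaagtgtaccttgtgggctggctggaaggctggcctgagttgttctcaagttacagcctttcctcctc
Slc16a9 promoter (chr10:70245026-70245275, + strand): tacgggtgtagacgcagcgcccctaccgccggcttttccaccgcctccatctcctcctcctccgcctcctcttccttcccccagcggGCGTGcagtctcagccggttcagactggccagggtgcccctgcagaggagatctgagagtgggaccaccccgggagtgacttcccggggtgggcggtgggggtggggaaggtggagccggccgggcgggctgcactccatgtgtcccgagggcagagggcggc

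The window of Slc16a3 held 2 such cores, that of Slc16a11 held 4, that of Slc16a4 held 0 and that of Slc16a9 held 1. GC content was 73.6%, 54.8%, 48.0% and 70.4% in that order. Among 183 windows of 134 measured carriers, ACGTG was in 21.9% and GCGTG in 40.4%. Among all 32851 windows of the same length the shares were 16.6% and 28.2%. The carriers at least 2-fold higher had 10 windows, from 8 of the 11 genes, and those at least 2-fold lower had 13, from 11 of the 12, so some genes count more than once. ACGTG was in 4 of the 10 and 4 of the 13, and GCGTG in 2 of the 10 and 8 of the 13. The E-box CACGTG, which contains ACGTG, was in 13.1% of the windows of measured carriers and 6.02% of all windows. The GC box GGGCGG was in 55.7% of carrier windows and 32.7% of all windows. The metal response core TGCGCNC was in 15.3% of carrier windows and 12.5% of all windows, and TGCACNC in 12.0% and 10.4%. Carrier windows were also richer in GC than all windows (median 58.8% against 52.4%), and all of these motifs are themselves rich in G and C.

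Carriers of sodium, protons, chloride and bicarbonate (families Slc4, Slc9, Slc12 and Slc26) had 19 of 29 genes measured, 2 at least 2-fold higher and none lower, with a median of 0.09 (-0.16 to 0.67). The 19 include Slc4a1ap, Slc9a3r1 and Slc9a3r2, which are no carriers. Slc4a8 had 3.59 in Elongin A-/- bodies and 1.18 in Elongin A+/+ bodies, the second value close to the floor. Slc4a4, the electrogenic sodium-bicarbonate carrier, had 2.44 and 1.49, and Slc4a10, a neuronal relative, was at least 1.45-fold lower, with 1.49 in Elongin A+/+ bodies. Slc4a1, the band 3 anion exchanger of red cells, had 1.09 in Elongin A-/- bodies and lay below the floor in Elongin A+/+ bodies, a bound of 1.06-fold. So the red cell carrier was barely above the floor on the array on which 8 of 9 measured blood and endothelial marker genes were at least 2-fold higher. In the cation-chloride family, Slc12a5 (KCC2), which lowers chloride in maturing neurons, was at least 2.02-fold higher, with 2.07 in Elongin A-/- bodies, and was just under 2-fold when differences were centred. Slc12a2 (NKCC1), which raises chloride in immature neurons, had 10.7 and 12.6. Slc12a9 had 2.52 and 1.29, and Slc12a7, a potassium-chloride carrier, 2.14 and 3.49. Of the calcium exchangers 2 of 8 genes were measured. Slc24a1, of rod photoreceptors, was 2.00-fold lower (1.06 against 2.13), the carrier nearest the 2-fold line, and was under 2-fold with the values as deposited.

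Zinc carriers belong to 2 families that work in opposite directions, Slc39 bringing zinc into the cytosol and Slc30 taking it out. In Slc39 all 11 measured genes of 12 lay above the floor on both arrays, 7 were higher and 4 lower in Elongin A-/- bodies, and the median was 0.39 (-0.30 to 0.90). It was 0.50 with the values as deposited, 0.44 with each chromosome's median removed and 0.08 over the 8 genes left with the floor at the 75th percentile. In Slc30 all 5 measured genes of 8 were lower, by between -0.39 and -0.02, though 2 of the 5 were higher with the values as deposited or with each chromosome's median removed, and 1 of 5 when differences were centred. The difference between the families was not tested.

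Slc39a8 (ZIP8), which also carries manganese, had 5.16 in Elongin A-/- bodies and 2.37 in Elongin A+/+ bodies, 2.18-fold higher and the only zinc carrier past 2-fold. Slc39a11 had 28.0 and 15.0 and lies on chromosome 11. Slc39a4 (ZIP4), the zinc carrier of gut and yolk sac, had 2.83 and 1.60. Slc39a6 and Slc39a10, a related pair known from cell migration in development, had 58.5 and 80.0, and 88.2 and 90.8. Slc39a1 had 2 probes that disagreed: the brighter gave 37.2 in Elongin A-/- bodies and 41.5 in Elongin A+/+ bodies, and the other 25.3 and 13.2, log2 differences of -0.16 and 0.94. The copper carriers Slc31a1 (18.7 against 31.3) and Slc31a2 (2.77 against 3.90) were lower by less than 2-fold, and both lie on chromosome 4. Slc30a1, the zinc exporter induced by zinc, and Slc40a1, the iron exporter, were below the floor on both arrays. Mt1, a metallothionein that is also induced by zinc, had 92.2 in Elongin A-/- bodies and 159 in Elongin A+/+ bodies.

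Mitochondrial carriers of family Slc25, which pass nucleotides, metabolites and cofactors through the inner membrane, leaned lower in Elongin A-/- bodies. Of 33 genes 27 were measured, 25 of them above the floor on both arrays, with none at least 2-fold higher and 2 lower. By any margin 19 of 27 were lower and 8 higher, where 4937 of all 9568 measured genes were lower, and the median was -0.34 (-0.64 to 0.04). It was -0.20 with the values as deposited, -0.29 with each chromosome's median removed and -0.12 over 14 genes with the floor at the 75th percentile. Its sign held at these settings and its size did not.

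Slc25a36 had 1.37 in Elongin A-/- bodies and 5.55 in Elongin A+/+ bodies, the largest difference of any measured carrier. Its other probe was at least 1.87-fold lower, below the floor in Elongin A-/- bodies and at 1.92 in Elongin A+/+ bodies. Slc25a33, the other pyrimidine nucleotide carrier of the family, had 8.76 and 14.4. Both carriers of this substrate were thus on the lower side, the second by less than 2-fold. Slc25a31, an ADP/ATP carrier of germ cells, was at least 2.58-fold lower, with 2.64 in Elongin A+/+ bodies. Slc25a38, which brings in glycine for haem synthesis, had 3.59 and 6.77, and Slc25a35 had 1.09 and 2.06.

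Among carriers of amino acids and cofactors, Slc25a13 (citrin), an aspartate-glutamate carrier, had 29.0 in Elongin A-/- bodies and 44.7 in Elongin A+/+ bodies, and its relative Slc25a12 23.8 and 27.3. Slc25a15, the ornithine carrier of the urea cycle, had 3.04 and 4.91, and Slc25a26, which imports S-adenosylmethionine, 1.55 and 2.41. All 4 were lower, none by 2-fold. Slc25a22, a glutamate carrier, was the highest of the family, with 5.84 and 3.76.

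Slc25a5, the ADP/ATP carrier of dividing cells, had 526 in Elongin A-/- bodies and 481 in Elongin A+/+ bodies. Slc25a3, the phosphate carrier, had 81.3 and 76.9, and Slc25a1, the citrate carrier, 37.0 and 35.0. Each of these 3 log2 differences was smaller than the disagreement between probes. The difference of the other measured ADP/ATP carrier, Slc25a31, is a bound, which that measure does not cover. Slc25a28 (mitoferrin 2), an iron carrier, had 27.3 and 21.7, and the erythroid form Slc25a37 was below the floor on both arrays. Examples of this family beyond Slc25a36, Slc25a31, Slc25a38, Slc25a35, Slc25a22, Slc25a5 and Slc25a37 were chosen for their known substrates after the values were seen.

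**Figure D3:**
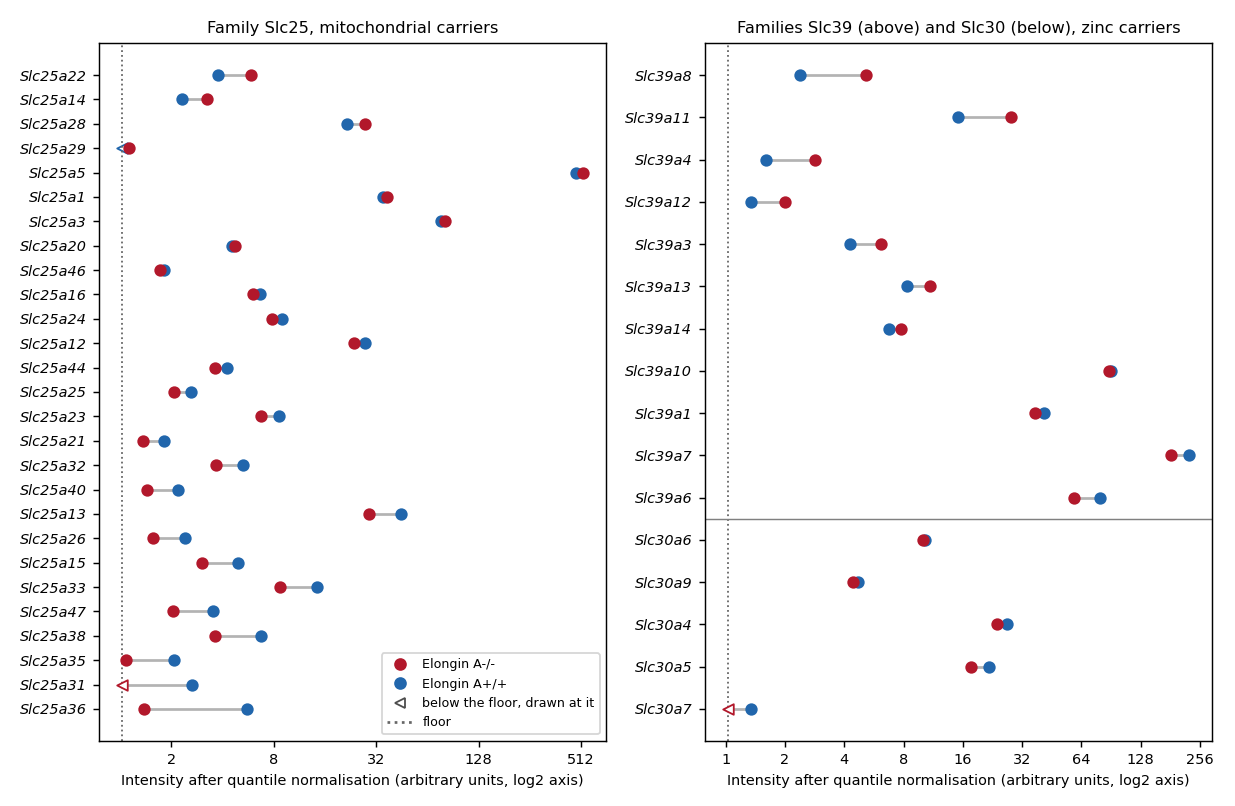
Intensity on a log2 axis of each measured gene of family Slc25 (left) and of the zinc carrier families Slc39 and Slc30 (right), for the Elongin A-/- array (red) and the Elongin A+/+ array (blue), 1 array each with no error bars. Triangles mark values below the floor of 1.03. In Slc25 the red point lies left of the blue one in 19 of 27 genes. In Slc39 it lies right of it in 7 of 11 genes, and in Slc30 in 0 of 5.

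Nucleotide sugar carriers of the Golgi and reticulum (family Slc35), with the acetyl-CoA carrier Slc33a1, differed little. Members were grouped by family number, so not every gene of Slc35 need carry a nucleotide sugar. Of 23 genes 18 were measured, with 1 at least 2-fold lower, none higher and a median of 0.01 (-0.40 to 0.16) that was -0.17 with each chromosome's median removed. The lower gene, Slc35d3, was a bound of 2.05-fold, with 2.10 in Elongin A+/+ bodies. Slc35a2, the UDP-galactose carrier, was at least 1.60-fold higher, with 1.64 in Elongin A-/- bodies. Phosphate carriers had 6 of 7 genes measured and a median of -0.37 (-1.15 to 0.44). Slc37a3, a lysosomal protein of the sugar-phosphate family, had 9.57 in Elongin A-/- bodies and 21.3 in Elongin A+/+ bodies. It lies on chromosome 6, and with that chromosome's median removed it was under 2-fold. Slc37a4, the glucose-6-phosphate carrier of the reticulum, had 1.86 and 1.37. The phosphate importers Slc20a1 (7.30 against 11.5) and Slc20a2 (3.16 against 5.16) were lower by less than 2-fold. The 3 measured fatty acid carriers were all on the lower side, the widest being Slc27a2 (at least 1.97-fold).

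Carriers of vitamins, choline, haem and nucleosides had 9 of 17 genes measured, with a median of 0.22 (-0.41 to 0.37). This grouping follows family number, so it leaves out the vitamin carrier Slc5a6 (3.25-fold lower) and the choline carrier Slc5a7, which was below the floor on both arrays. Slc52a3, a riboflavin carrier, was at least 2.31-fold higher, with 2.37 in Elongin A-/- bodies. Slc19a1, the reduced folate carrier, had 34.1 in Elongin A-/- bodies and 45.6 in Elongin A+/+ bodies. The lysosomal PQ-loop family split, with Slc66a1, which exports cationic amino acids from lysosomes, at 1.84 and 4.64 (2.53-fold lower), and Slc66a2 at 2.75 and 1.17 (2.35-fold higher). Organic ion and drug carriers were mostly undetected, with 10 of 26 genes measured, 7 of them as bounds. Slc47a1 had 3.04 in Elongin A-/- bodies, lay below the floor in Elongin A+/+ bodies, and lies on chromosome 11. Slc22a18, an imprinted organic cation carrier, was at least 1.95-fold lower, with 2.00 in Elongin A+/+ bodies.

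Families Slc17, Slc18 and Slc32 hold the vesicular carriers, which define a neuron's transmitter, and in Slc17 also phosphate and urate carriers and the lysosomal sialic acid carrier Slc17a5. Of their 11 genes 6 were measured, including the non-vesicular Slc17a1 and Slc17a5, and none was 2-fold apart. Slc18a3, the acetylcholine carrier of motor neurons, had 3.46 in Elongin A-/- bodies and 5.96 in Elongin A+/+ bodies. Slc18a2, the monoamine carrier, had 1.70 and 1.10. Slc32a1, the carrier that loads GABA and glycine, had 3.11 and 2.08, and Slc17a6, the glutamate carrier of early neurons, was below the floor on both arrays. These carriers differed in sign, within 2-fold, and Slc17a8, another glutamate carrier, was at least 1.18-fold higher. In samples of mixed cells such as these, fewer cells of a type and less RNA per cell cannot be told apart.

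Neural and blood markers also differed between the arrays on which these carriers were measured. Among the neuron markers 8 of 9 were measured. Stmn2 (25.1 against 82.3) and Syt1 (1.51 against 5.22) were at least 2-fold lower, and none was at least 2-fold higher. Dcx (at least 1.38-fold) and Snap25 (at least 1.10-fold) were on the higher side, and Tubb3 was close (168 against 179). The median of these markers was -0.55, with a summed intensity of 235 in Elongin A-/- bodies and 338 in Elongin A+/+ bodies. Tubb3 makes up most of both sums, and Stmn2 much of the gap between them. All sums here use values before the floor was applied. Of 6 neural progenitor markers 2 were at least 2-fold lower, Fabp7 (7.37 against 30.6) and Sox1 (at least 2.43-fold), while Pax6 (12.9 against 9.32) and Olig2 (at least 1.49-fold) were higher. Their sums of 73.0 and 128 rest mostly on Fabp7 and Sox2 (39.5 against 72.2). Blood and endothelial markers had sums of 157 and 8.98 over 9 genes, 7 of them bounds, so the sums include values below the floor. The first sum rests mostly on Kdr (54.4 against 2.23) and Cldn5 (60.2 against 1.56). Klf1 alone was lower (at least 1.48-fold), and Cdh5, Tie1 and Gata1 were below the floor on both arrays. Glia markers had sums of 12.6 and 5.10 over only 2 genes, Aldoc and Bcan, with Olig1 below the floor on both arrays. Aldoc (10.9 against 4.48) lies on chromosome 11, where the median over all measured genes was 0.41, and Bcan is a bound (at least 1.70-fold higher). Visceral endoderm markers were mixed, with 3 of 5 measured genes higher, among them Ttr (at least 3.34-fold), and with Afp (at least 3.89-fold) and Foxa2 (1.56 against 2.65) lower, Amn and Apoa1 below the floor on both arrays, and sums of 21.0 and 16.0. Of 4 pluripotency markers 3 were lower, with Zfp42 past 2-fold (1.48 against 4.34), and the sums of 14.1 and 12.5 run the other way because of Dppa4 (9.65 against 4.03). The part of any of these cell types in the carrier differences was not tested.

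Chromosome position went with part of the result. Measured genes of chromosomes 8 and 11 had medians of 0.43 and 0.41, and those of chromosome 6 had -0.26. Of the 11 carriers at least 2-fold higher, 4 lie on chromosomes 8 and 11 (Slc38a8, Slc16a3, Slc16a11 and Slc47a1), and none of the 12 lower ones does. The 28 measured carriers of these 2 chromosomes had a median of 0.32 (0.04 to 0.78), with 20 of them higher. Among all genes there, 406 of 522 on chromosome 8 and 617 of 803 on chromosome 11 were higher. By at least 2-fold 62 and 95 of them were. Of the carriers 7 of 11 on chromosome 8 (median 0.14) and 13 of 17 on chromosome 11 (median 0.37) were higher. So the carriers of chromosome 11 were near all genes there, and those of chromosome 8 leaned higher by less than all genes there. Without chromosomes 6, 8 and 11, 7 carriers were at least 2-fold higher and 11 lower of 137, where 5.88% and 6.19% of all genes there were. The median of these carriers was -0.09, and that of all genes there was -0.05. On chromosome 4, which carries Eloa, 12 of 13 measured carriers were lower, where 319 of all 564 measured genes there were. Of the 13 carriers 4 are bounds. Of the 12 lower ones 1 was past 2-fold, and the median of the 13 was -0.41 (-0.74 to -0.25). The median of all 564 measured genes of that chromosome was -0.08, and this contrast was picked out after the values were seen. The part of chromosome number in these differences was not tested.

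**Figure D4:**
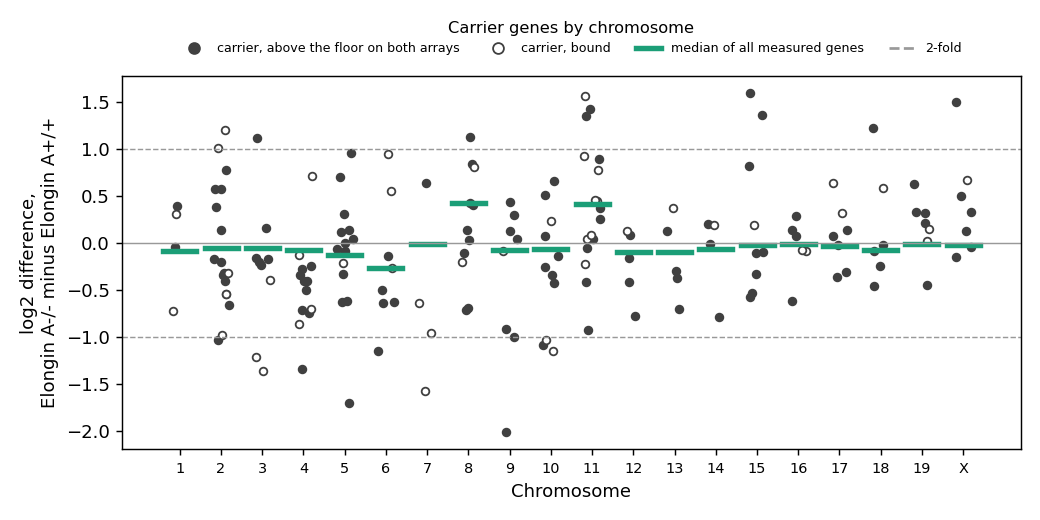
Log2 difference (Elongin A-/- minus Elongin A+/+) of each measured carrier gene by chromosome. Filled points lie above the floor on both arrays, open points are bounds, green bars give the median of all measured genes of the chromosome and dashed lines mark 2-fold. The green bars of chromosomes 8 and 11 lie at 0.43 and 0.41, and that of chromosome 6 at -0.26. On chromosome 4, 12 of the 13 carriers lie below 0, where 319 of all 564 measured genes there do.

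Carriers that neighbour each other in the gene order gave 5 pairs with both genes measured, of which 2 share Slc38a2. Slc38a1, Slc38a2 and Slc38a4, a run on chromosome 15, were all lower (-0.58, -0.11 and -0.32). Slc25a29 and Slc25a47 on chromosome 12 differed in sign (0.13 and -0.77).

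Other transporters and carrier partners were set beside these genes as a description. The 21 measured ABC transporters, which pump with ATP, had 1 at least 2-fold higher and 1 lower and a median of 0.07. The 16 measured ion pump genes, which build the gradients that carriers use, had 1 higher, none lower and a median of -0.11. Among 12 measured carriers with other symbols none was at least 2-fold higher and 2 were lower: Slco4a1 (at least 4.97-fold) and Slco3a1 (4.53 against 10.2), both of the organic anion family Slco. Their median was -0.47 (-0.99 to 0.03). Among 14 measured partners and regulators the 1 gene past 2-fold was Sgk1, a kinase that raises the surface level of many carriers, with 16.7 in Elongin A-/- bodies and 3.67 in Elongin A+/+ bodies. Those with the next largest differences were Stk39, a kinase that activates sodium-coupled chloride carriers (4.52 against 7.84), Mt1, given above, and Atf4, a factor that induces amino acid carriers (56.9 against 84.1).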

How the data were processed

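Per the labels' protocols, digoxigenin-labelled cRNA was made from 1 µg of total RNA with an Applied Biosystems kit for chemiluminescent detection. The deposited value table was read as linear intensity, since its values are positive with medians of 1.03 (Elongin A-/-) and 1.02 (Elongin A+/+). The sources used here do not give the authors' scaling, background correction or filters. Depth is not defined for arrays, and their number limits the precision.

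Log2 intensities were quantile normalised, because the 75th percentiles differed by 0.15 and the 10th by -0.16. A gene was represented by its 1-symbol probe with the highest mean, named from the platform annotation. All 284 carriers were found by gene identifier in the RefSeq table of GRCm38.p6, used for chromosomes and gene order. Differences were counted at 2-fold, with no p-value. Medians carry binomial 95% intervals over members.

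The members, gene lists and alternatives were chosen with earlier results of these data known. Genes named were the 10 largest differences each way among carriers above the floor on both arrays, the 5 widest bounds per direction, the extremes of families with 4 or more measured members, a fixed list of well-known carriers, members with disagreeing probes, and up to 4 per other list. Of the fixed list, Slc17a7, Slc25a4, Slc11a2 and Slc22a3 were not analysed here. Others were chosen for their function after their values were seen. The proteins planned for 1 pair of carriers are not shown. The processing was tested on simulated data in which only bright genes, above the floor on both arrays, were changed. That test does not cover bounds or genes close to the floor. Python 3.11.15, numpy 2.4.6, pandas 2.3.3, scipy 1.17.1 and statsmodels 0.14.6 were used.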

Additional observations from a re-analysis of the deposited data

How the results depend on the processing

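The median over measured carriers stayed within its interval at all 12 other settings of scaling, floor, probes, chromosomes and members. Family medians were less stable: that of Slc16 was 0.44, and -1.18 over the 2 genes left without chromosomes 6, 8 and 11, and the medians of Slc12, Slc22, Slc35 and Slc38 each changed sign under at least 1 setting. Counts depended on the size and the floor. Of 173 carriers 28 were higher and 33 lower at 1.5-fold, where 1512 and 1416 of all 9568 measured genes were (15.8% and 14.8%). At 3-fold 1 was higher and 2 lower, where 2.23% and 1.86% of all measured genes were. A floor at the 25th percentile gave 27 at least 2-fold higher and 21 lower of 244, where 8.66% and 7.89% of all genes were. No floor gave 38 and 32 of 284, where 11% and 10.3% of all genes were. A floor at the 75th percentile gave 1 and 1 of 63, where 2.61% and 2.19% of all genes were. With a pseudocount at the floor 4 were higher and 6 lower of 173, where 4.53% and 4.13% of all genes were. Without chromosomes 6, 8 and 11, 7 of 137 were higher, where 5.88% of all genes there were. Of carriers at least 2-fold apart 63.6% were higher with the values as deposited, against 47.8% after quantile normalisation. All genes moved the same way: 800 were at least 2-fold higher and 449 lower as deposited, against 647 and 571 after normalisation. The lower floors admit more dim genes and the pseudocount shrinks their differences by construction. No named gene past 2-fold changed sign. No paired analysis was possible because there is 1 array per genotype, and for the same reason no replicate could be left out.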

Other observations

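One further probe matching the carrier pattern carries 2 symbols, Slc28a2 and Slc28a2b, nucleoside carriers, and was left out. It had 0.415 on the Elongin A-/- array and 0.594 on the Elongin A+/+ array, both below the floor. Of the 6 carriers with several probes, Slc35e2 had a pair of probes above the floor on both arrays that disagreed in sign, by -0.27 and 0.27 on the log2 scale.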
